A study of Homo sapiens with 4 samples.

Results

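The 32 genes described here encode proteins named for a zinc finger, a short fold held in shape by a zinc ion. They were taken from the published lists of genes that changed when OCT4, NANOG or SOX2 was silenced in NCCIT cells, as every entry whose symbol began with ZNF or ZFP and a number. Each is given by the 1 probe that these lists name, among the 47289 on the array. Other probes of the same genes, if any, could not be identified. All 32 came from the OCT4 lists, 14 from the list of genes higher after OCT4 silencing and 18 from the list of genes lower after it, and 1 of them, ZNF219, also stood in the list of genes higher after NANOG silencing. The lists used here stop before the end of the genes lower after NANOG silencing and do not include those for SOX2, so genes named only there were not analysed here.

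NCCIT is a human embryonal carcinoma (hEC) cell line, the malignant counterpart of an embryonic stem cell. Cells of this 1 line were transfected with Hyperfect reagent carrying esiRNA against OCT4, NANOG or SOX2. The esiRNA was a pool of short interfering RNAs cut from a long double strand. The harvest is recorded here as day 2.5, while the paper's methods describe the deposited arrays as day 2 samples. The mock cells received the reagent with no esiRNA, so that the comparisons with mock also differ in the presence of an RNA. Each of the 4 groups was measured on 3 arrays described as biological replicates, and all groups shared the line, the medium and the reagent. Values below are log2 of the background-corrected and quantile-normalised signal plus 16, called the log2 signal; a difference of 1 is 2-fold on that scale, and the added 16 understates the change of dim genes. A probe was called changed when the limma fit over all 12 arrays gave a Benjamini-Hochberg adjusted p under 0.05 and a difference of at least 1.5-fold. The number of arrays, 3 a group, limits the precision.

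Most zinc finger proteins of vertebrates carry fingers of the C2H2 type, which read DNA. Many of these add a KRAB domain, which recruits corepressors that silence chromatin, or a BTB or SCAN domain, through which the proteins pair. Other finger types do other work: C3H fingers bind RNA, RING domains pass ubiquitin to target proteins, LIM domains hold other proteins, and an ArfGAP domain acts on small GTPases of vesicle traffic. OCT4, SOX2 and NANOG are the transcription factors that keep embryonic stem and embryonal carcinoma cells undifferentiated, and KRAB zinc finger genes lie in large clusters on chromosome 19.

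The targeted genes were measured first. The POU5F1 probe, for the gene of OCT4, read 9.39, 9.12 and 9.26 on the mock arrays, 5.32, 5.10 and 4.73 after OCT4 silencing, 8.80, 8.78 and 8.93 after NANOG silencing and 5.003, 4.82 and 4.97 after SOX2 silencing. The NANOG probe had mean log2 signals of 8.42 in mock, 4.89 after OCT4 silencing, 6.57 after NANOG silencing and 4.80 after SOX2 silencing. Both messages were thus lower in the OCT4 and SOX2 knock-downs than in the NANOG knock-down, and the SOX2 probe was not analysed here. The arrays detected between 11196 and 12858 probes each, and any pair of arrays of 1 group correlated between 0.992 and 0.9969 over probes. Of 8 embryonal carcinoma marker probes for 7 genes, 8 were detected on all mock arrays, and their summed signal was 22758 to 24049 in mock, 4861 to 5747 after OCT4 silencing, 16113 to 17272 after NANOG silencing and 4714 to 5261 after SOX2 silencing. The genes were DNMT3B, DPPA4, GDF3, LIN28, TDGF1 and the targeted POU5F1 and NANOG. LIN28 differed from mock by -0.64 after OCT4, 0.13 after NANOG and -0.55 after SOX2 silencing. Every other probe of this list was lower than mock in each knock-down. For 6 mesodermal marker genes (ACTA2, ACTC, COL1A1, HAND1, MSX1 and RUNX1) the sum was 599 to 641 in mock, 6295 to 6456 after OCT4 silencing, 1952 to 2418 after NANOG silencing and 5316 to 5968 after SOX2 silencing, and the probes of ACTC, COL1A1, MSX1 and RUNX1, 4 of the 6, were detected on no mock array. In the mock and NANOG sums HAND1 was the main term: its mean log2 signal was 9.17 in mock and 11.05 after NANOG silencing, and the other 5 genes differed between these groups by -0.11 (ACTA2), -0.07 (RUNX1), 0.16 (COL1A1), 0.36 (ACTC) and 0.44 (MSX1). The part of these marker differences in the values below was not tested, and fewer cells of a type and less RNA per cell cannot be told apart. The marker probes could be named only through the published lists of genes that changed in these arrays. A marker that did not change could not enter, so the marker values and sums are a description. The trophoblast and endoderm markers, which those lists do not name, were not analysed here.

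The zinc finger genes followed the OCT4 knock-down by choice, the SOX2 knock-down in the same direction and the NANOG knock-down with smaller differences. The members were chosen by the ratio of OCT4 knock-down to mock in these arrays, so this difference is a description. The 14 members from the higher list had a median log2 difference of 0.74 and a range of 0.32 to 1.81, and the 18 from the lower list a median of -0.78 and a range of -1.64 to -0.55. With the call used here, 9 of the 14 were called higher and 17 of the 18 lower, beside 23.7% of the 13302 probes tested called in either direction (13.4% higher and 10.3% lower). When the arrays were scaled to a common median in place of quantile normalisation, 14 of the 14 were called higher and 4 of the 18 lower, with list medians of 1.202 and -0.20. The closest to no difference were ZNF319 at 0.32 in the first list and ZNF313 at -0.55 in the second. All 32 passed the detection filter. The OCT4 arrays did not overlap the mock arrays for any of the 32, as for 61.4% of all probes tested.

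**Figure D1:**
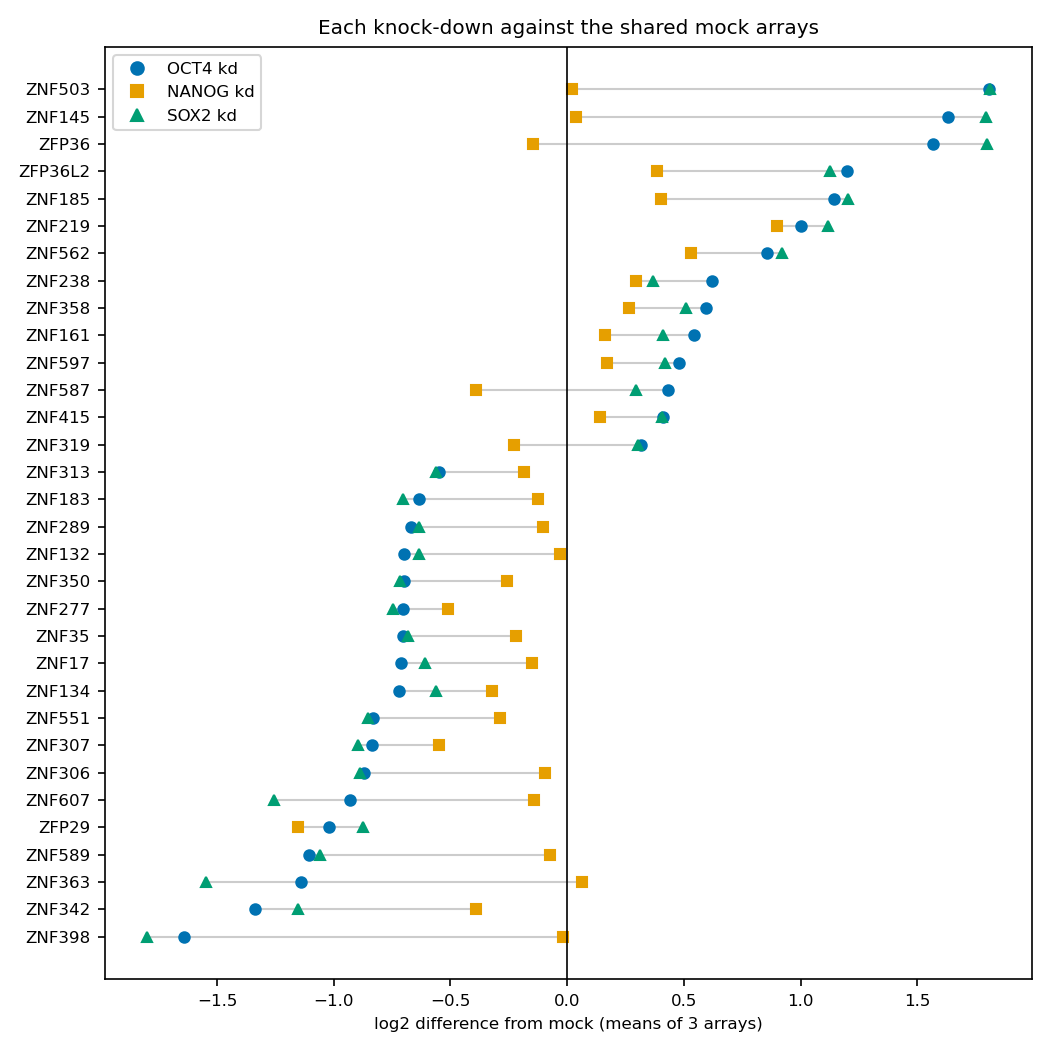
The log2 difference from the mock arrays (x axis) is plotted for each of the 32 zinc finger protein genes (rows), as means of 3 arrays, for the OCT4 (circle), NANOG (square) and SOX2 (triangle) knock-downs, which share the mock arrays. The OCT4 and SOX2 symbols lie close together, the farthest apart being those of ZNF363, by 0.40, while the NANOG squares lie nearer 0 than both of them for all genes but ZFP29 and ZNF587.

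The SOX2 and NANOG knock-downs were compared with the same mock arrays that entered the choice, so these values are descriptions too. SOX2 silencing gave 7 of the 14 higher and 16 of the 18 lower, with 23% of all probes called, 12.9% higher and 10.1% lower. The medians were 0.71 and -0.80, and all 32 differences had the sign of their list. With median scaling 11 of the 14 were called higher and 8 of the 18 lower, with medians of 0.81 and -0.58. NANOG silencing gave 1 called higher, ZNF219, and 1 called lower, ZFP29, with 9.19% of all probes called, 4.99% higher and 4.2% lower. Its medians were 0.17 and -0.17, and 4 of the 32 differences had the other sign: ZNF587 at -0.39, ZNF319 at -0.23 and ZFP36 at -0.15 in the higher list and ZNF363 at 0.06 in the lower. The sign of 12 of the 32 NANOG differences changed under at least 1 of the 21 alternatives, those of ZFP36 and ZNF363 among them, and with median scaling 12 had the other sign than their list. After NANOG silencing the arrays lay above mock without overlap for 7 members and below it for 13, and overlapped it for 12. Among all probes 21.2% lay above and 20.9% below without overlap, 42.2% in either direction. After SOX2 silencing 12 members lay above and 18 below, and 2, ZNF238 and ZNF587, overlapped mock. Among all probes 26.6% lay above and 30.7% below, 57.3% in either direction. With median scaling the median of all probes moved to 0.43 for OCT4 silencing, 0.16 for NANOG silencing and 0.09 for SOX2 silencing, and the share of calls that were higher moved from 56.5% to 92.1%, from 54.3% to 79.7% and from 56.1% to 73.6%. With no background correction the members called were 8 after OCT4, 0 after NANOG and 9 after SOX2 silencing. No member called in these comparisons changed sign in any of the 21 alternatives.

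The SOX2 knock-down against the NANOG knock-down is a comparison whose arrays did not enter the choice of members, for 31 of the 32. It is the test reported below, but it is not independent of that choice. In the main fit 0 of the 13302 probes were called between the SOX2 and OCT4 knock-downs, and the paper treats these as near equivalents. Members chosen for a change after OCT4 silencing were therefore likely to differ here on the same side. The share over all probes carries no such choice. The genes lie on the same side as they do after OCT4 silencing: 14 of 14 members from the higher list had a positive difference and 17 of 18 from the lower list a negative one. Of the 32, 13 were called, 6 higher (ZFP36, ZNF503, ZNF145, ZNF185, ZFP36L2 and ZNF587) and 7 lower (ZNF398, ZNF363, ZNF607, ZNF589, ZNF306, ZNF342 and ZNF132) after SOX2 silencing. ZNF503 and ZNF145 were detected on no NANOG array and passed the detection filter only through the OCT4 and SOX2 arrays, where they are high, so they had to differ. Of the other 30, 11 were called, 4 higher and 7 lower. Among all 13302 probes tested 20.4% were called, 11.1% higher and 9.23% lower. The members' medians were 0.46 in the higher list (0.33 without ZNF503 and ZNF145) and -0.55 in the lower, beside -0.04 over all probes. The SOX2 arrays lay above the NANOG arrays without overlap for 12 of the 14 and below them for 17 of the 18, ZNF503 and ZNF145 counted. Among all probes tested 24.8% lay above and 30.3% below without overlap, 55.1% in either direction. Of the 13 calls, 7 were kept in each of the 21 alternatives: ZFP36, ZFP36L2, ZNF363, ZNF398 and ZNF589, with ZNF145 and ZNF503, which had to differ. With no background correction these 7 were the calls left.

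**Figure D2:**
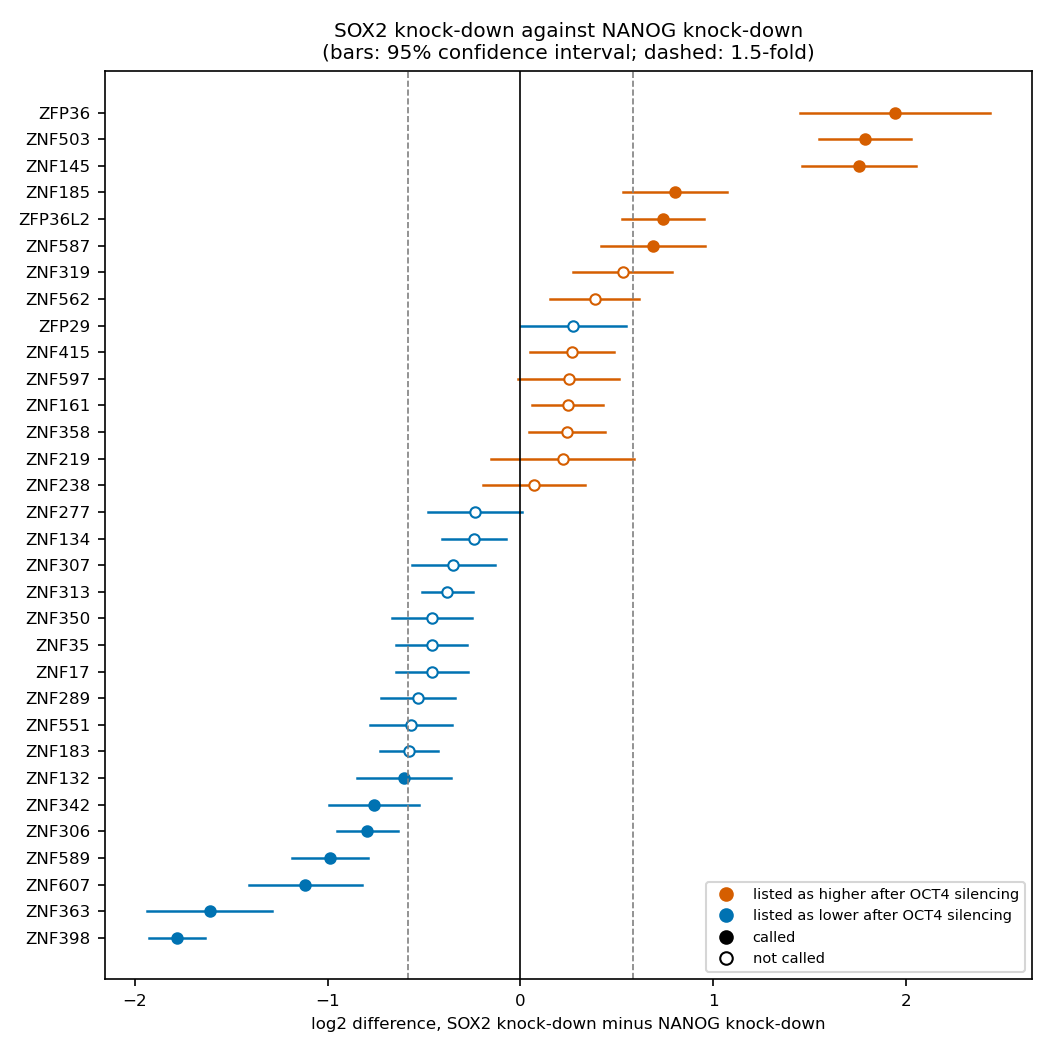
The log2 difference between the SOX2 and NANOG knock-downs (x axis) is plotted for the 32 genes, with 95% confidence intervals from the limma fit; filled points were called, colour gives the OCT4 list, and dashed lines mark 1.5-fold. The genes of the higher list lie right of 0, from 0.07 (ZNF238) to 1.94 (ZFP36), and those of the lower list lie left of it, down to -1.78 (ZNF398), except ZFP29.

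Both members grouped here as C3H, ZFP36 and ZFP36L2, were called higher after SOX2 than after NANOG silencing. ZFP36, or tristetraprolin, binds AU-rich elements in messages such as those of cytokines and promotes their decay. ZFP36 read 5.90, 6.11 and 4.98 on the mock arrays, 7.15, 7.36 and 7.18 after OCT4 silencing, 5.29, 5.60 and 5.66 after NANOG silencing and 7.42, 7.50 and 7.46 after SOX2 silencing. The OCT4 and SOX2 arrays lay above every mock and NANOG array, and the mock arrays were spread the most, with 1 of 3 not detected. The difference between SOX2 and NANOG silencing was 1.94 (SE 0.23, adjusted p = 1.99e-05). ZFP36L2 is a relative of ZFP36 with the same kind of RNA-binding fingers. On the mock arrays ZFP36L2 read 7.63, 7.71 and 7.85, against 8.90, 8.91 and 8.99 after OCT4, 8.05, 7.97 and 8.33 after NANOG and 8.85, 8.93 and 8.79 after SOX2 silencing. Its NANOG arrays lay between mock and the other two knock-downs. The difference between SOX2 and NANOG silencing was 0.74 (SE 0.10, adjusted p = 5.52e-05).

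Of the BTB members, ZNF145 was called and ZNF238 was not. ZNF145, now ZBTB16 and known as PLZF, is a repressor fused to the retinoic acid receptor in a form of leukaemia. The ZNF145 signals were 4.41, 4.63 and 4.53 in mock, 6.15, 6.36 and 5.96 in the OCT4 knock-down, 4.47, 4.80 and 4.41 in the NANOG knock-down and 6.16, 6.25 and 6.55 in the SOX2 knock-down. It was not detected on any mock or NANOG array and detected on every OCT4 and SOX2 array. The SOX2 knock-down was at least 1.97-fold higher than the NANOG knock-down, a bound set against the lowest detected signal on each NANOG array. It is a description, since the gene entered the test only through the groups in which it is high. ZNF238, now ZBTB18 and known as RP58, is a transcriptional repressor that acts in neural development. For ZNF238 the 3 mock arrays gave 6.20, 5.98 and 5.98, the OCT4 arrays 6.65, 6.76 and 6.61, the NANOG arrays 6.38, 6.36 and 6.32 and the SOX2 arrays 6.56, 6.61 and 6.10. The SOX2 arrays overlapped those of mock and NANOG silencing through 1 array at 6.10, and the difference of 0.07 between SOX2 and NANOG silencing had a 95% confidence interval of -0.19 to 0.34.

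ZNF503, ZNF219, ZNF358 and ZNF342 carry C2H2 fingers. ZNF503, also called NOLZ1, is a repressor that acts in the developing brain. ZNF503 read 4.54, 4.86 and 4.51 on the mock arrays, 6.47, 6.59 and 6.28 after OCT4 silencing, 4.56, 4.80 and 4.61 after NANOG silencing and 6.43, 6.43 and 6.48 after SOX2 silencing. As for ZNF145, no mock or NANOG array detected it and every OCT4 and SOX2 array did. The SOX2 knock-down was at least 2.15-fold higher than the NANOG knock-down, a description on the same ground. ZNF219 was the only member called higher after NANOG silencing, and stands in the NANOG list that chose it, so that value is a description. On the mock arrays ZNF219 read 5.62, 5.67 and 4.92, against 6.21, 6.42 and 6.60 after OCT4, 6.24, 6.41 and 6.26 after NANOG and 6.45, 6.53 and 6.59 after SOX2 silencing. The lowest of the 3 mock arrays was the array on which it was not detected. The SOX2 and NANOG knock-downs differed by 0.22 (95% confidence interval -0.15 to 0.59), and all 3 SOX2 arrays lay above the NANOG arrays. ZNF358 is shown as 1 of the 3 members with the highest mean signal. The ZNF358 signals were 8.88, 8.73 and 8.73 in mock, 9.33, 9.48 and 9.32 in the OCT4 knock-down, 8.89, 9.16 and 9.11 in the NANOG knock-down and 9.28, 9.21 and 9.39 in the SOX2 knock-down. The NANOG arrays lay between mock and the other two groups, with a difference of 0.24 between SOX2 and NANOG silencing (adjusted p = 0.0422) that is under 1.5-fold. ZNF342, now ZNF296, went the other way. For ZNF342 the 3 mock arrays gave 8.58, 8.36 and 8.40, the OCT4 arrays 6.89, 7.32 and 7.13, the NANOG arrays 8.004, 8.01 and 8.16 and the SOX2 arrays 7.26, 7.23 and 7.40. Every OCT4 and SOX2 array lay below every mock and NANOG array. SOX2 silencing was lower than NANOG silencing by 0.76 (SE 0.11, adjusted p = 0.000105).

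**Figure D3:**
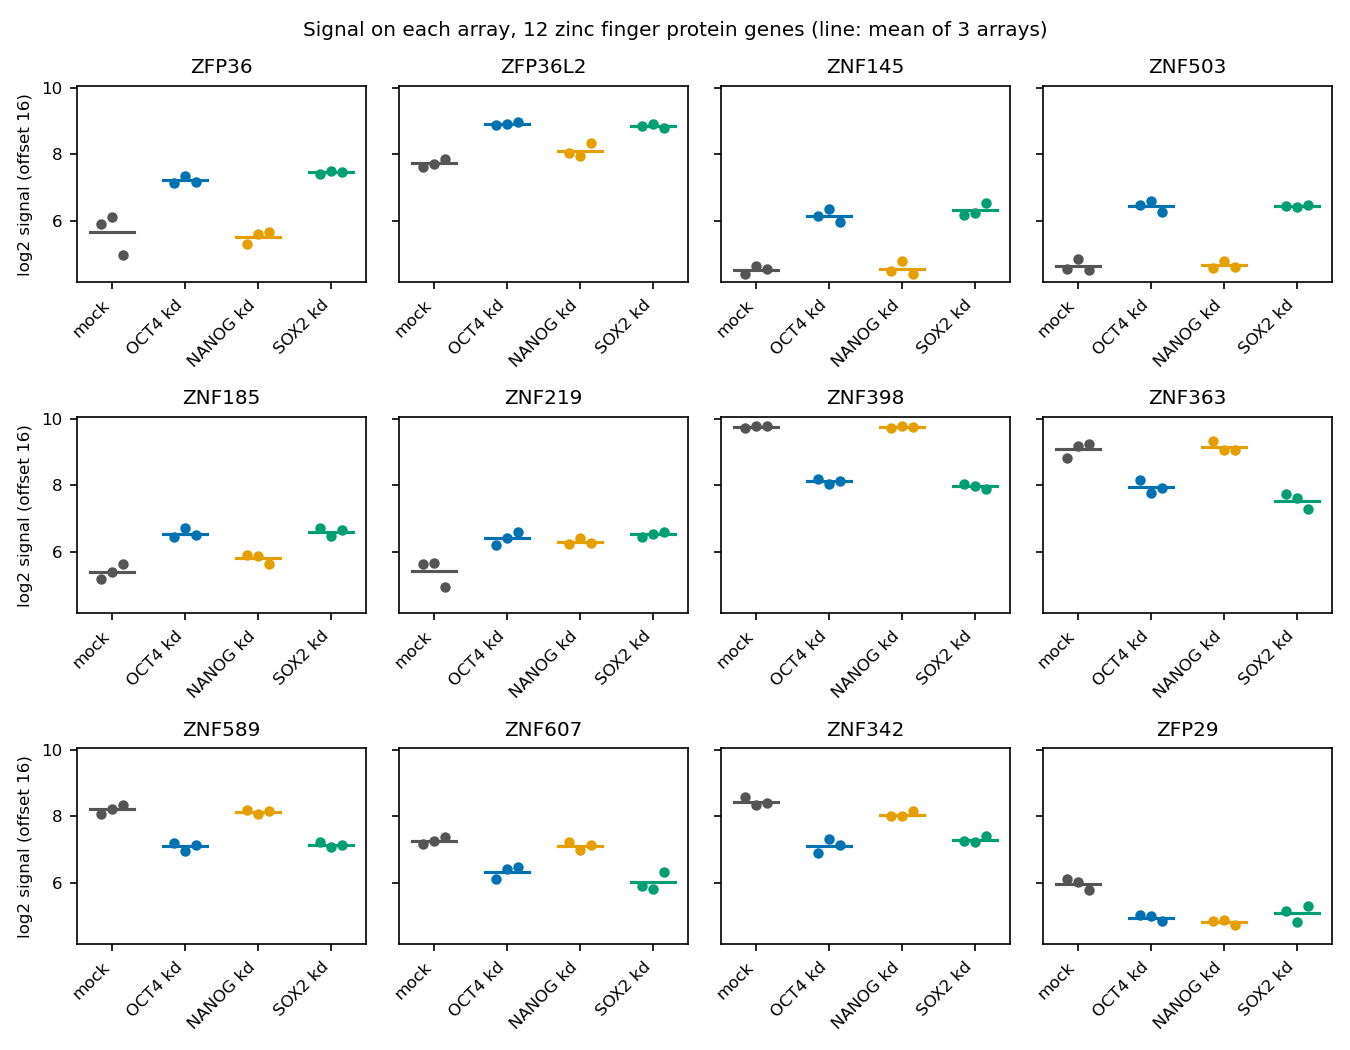
Log2 signal on each of 12 arrays (y axis, shared scale) is plotted by group for 12 zinc finger protein genes, with a line at the mean of 3 arrays. In ZNF145 and ZNF503 the mock and NANOG points lie at or below 4.86, where neither gene was detected, and the OCT4 and SOX2 points lie at or above 5.96; in ZNF398 and ZNF363 the order is reversed.

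ZNF398, ZNF589 and ZNF607 were called lower after SOX2 than after NANOG silencing. ZNF398 is known as an estrogen receptor partner and a factor of human pluripotency. ZNF398 read 9.73, 9.79 and 9.80 on the mock arrays, 8.19, 8.06 and 8.15 after OCT4 silencing, 9.73, 9.78 and 9.75 after NANOG silencing and 8.04, 7.998 and 7.89 after SOX2 silencing. The mock and NANOG arrays overlapped, and the OCT4 and SOX2 arrays lay over 1.5 units lower. The difference between SOX2 and NANOG silencing was -1.78 (SE 0.07, adjusted p = 8.78e-10), which is 3.44-fold. ZNF589, known from blood stem cells, had the same shape. On the mock arrays ZNF589 read 8.08, 8.21 and 8.34, against 7.21, 6.95 and 7.15 after OCT4, 8.20, 8.06 and 8.16 after NANOG and 7.23, 7.08 and 7.15 after SOX2 silencing. Its NANOG arrays overlapped mock, and SOX2 silencing was lower by 0.99 (SE 0.09, adjusted p = 2.54e-06). The ZNF607 signals were 7.16, 7.25 and 7.38 in mock, 6.13, 6.41 and 6.47 in the OCT4 knock-down, 7.22, 7.001 and 7.15 in the NANOG knock-down and 5.89, 5.82 and 6.32 in the SOX2 knock-down. The SOX2 arrays had the lowest mean and the largest spread of the 4 groups, and the difference to NANOG silencing was -1.11 (SE 0.13, adjusted p = 2.82e-05). ZNF350 and ZNF562 were not called: ZNF350, a partner of BRCA1, differed by -0.46 (adjusted p = 0.00179) and ZNF562 by 0.39 (adjusted p = 0.00954). ZNF562 was detected on no mock array but on every array of the 3 knock-downs. Against mock it was at least 1.61-fold higher after OCT4 silencing, at least 1.29-fold after NANOG silencing and at least 1.68-fold after SOX2 silencing.

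Of the 3 SCAN genes, ZNF306 was called. ZNF306, now ZKSCAN3, is a repressor of autophagy genes. For ZNF306 the 3 mock arrays gave 7.01, 7.05 and 7.07, the OCT4 arrays 6.32, 6.07 and 6.12, the NANOG arrays 6.94, 6.94 and 6.96 and the SOX2 arrays 6.13, 6.16 and 6.16. The NANOG arrays lay a little below mock and the OCT4 and SOX2 arrays far below, with a difference between SOX2 and NANOG silencing of -0.79 (SE 0.07, adjusted p = 2.37e-06). ZNF307, now ZKSCAN4, lies 4 coding genes away from ZNF306 on chromosome 6. ZNF307 read 7.18, 7.05 and 7.03 on the mock arrays, 6.38, 6.25 and 6.13 after OCT4 silencing, 6.68, 6.55 and 6.37 after NANOG silencing and 6.31, 6.08 and 6.17 after SOX2 silencing. Here the NANOG arrays lay below mock by 0.55 without overlap, and SOX2 silencing differed from NANOG silencing by -0.35 (adjusted p = 0.0123). ZFP29, now ZSCAN2, was the only member of the lower list with a positive difference between SOX2 and NANOG silencing, 0.28 (adjusted p = 0.0874), with neither group detected. On the mock arrays ZFP29 read 6.10, 6.03 and 5.78, against 5.03, 4.99 and 4.84 after OCT4, 4.86, 4.89 and 4.71 after NANOG and 5.15, 4.82 and 5.31 after SOX2 silencing. It was detected on every mock array and on no array of any knock-down. Against mock it was at least 1.71-fold lower after OCT4 silencing, at least 1.55-fold after NANOG silencing and at least 1.56-fold after SOX2 silencing.

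Of the RING members, ZNF363 was called. ZNF363, now RCHY1 and known as PIRH2, marks p53 with ubiquitin. The ZNF363 signals were 8.83, 9.20 and 9.24 in mock, 8.16, 7.77 and 7.92 in the OCT4 knock-down, 9.35, 9.06 and 9.06 in the NANOG knock-down and 7.73, 7.62 and 7.29 in the SOX2 knock-down. The NANOG arrays overlapped mock, and every SOX2 array lay below every other array. The difference between SOX2 and NANOG silencing was -1.61 (SE 0.15, adjusted p = 2.75e-06). ZNF313, now RNF114, is also a ubiquitin ligase. For ZNF313 the 3 mock arrays gave 11.85, 11.78 and 11.81, the OCT4 arrays 11.25, 11.31 and 11.24, the NANOG arrays 11.58, 11.65 and 11.65 and the SOX2 arrays 11.25, 11.28 and 11.23. All 3 knock-downs lay below mock on every array, NANOG silencing by the least, and SOX2 silencing was 0.38 below NANOG silencing (adjusted p = 0.000262), which is under 1.5-fold. ZNF183, now RNF113A, is a part of the spliceosome. ZNF183 read 8.72, 8.63 and 8.65 on the mock arrays, 8.05, 8.03 and 8.02 after OCT4 silencing, 8.45, 8.61 and 8.56 after NANOG silencing and 7.90, 7.95 and 8.05 after SOX2 silencing. The SOX2 and NANOG arrays did not overlap, and the difference of -0.58 (adjusted p = 2.52e-05) was just under 1.5-fold. It was called in 4 of the 21 alternatives.

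ZNF185 and ZNF289 were the LIM and ArfGAP members. ZNF185 binds the actin cytoskeleton. On the mock arrays ZNF185 read 5.18, 5.40 and 5.63, against 6.44, 6.71 and 6.50 after OCT4, 5.92, 5.87 and 5.63 after NANOG and 6.70, 6.47 and 6.65 after SOX2 silencing. The OCT4 and SOX2 arrays lay above all others, the NANOG arrays lay just above those of mock (lowest 5.626 against highest 5.625), 1 of which did not detect the gene, and SOX2 silencing was higher than NANOG silencing by 0.80 (SE 0.12, adjusted p = 0.000213). ZNF289, now ARFGAP2, acts on the COPI coat of vesicles of the Golgi. The ZNF289 signals were 8.74, 8.62 and 8.68 in mock, 8.05, 8.04 and 7.94 in the OCT4 knock-down, 8.57, 8.67 and 8.50 in the NANOG knock-down and 8.03, 7.89 and 8.21 in the SOX2 knock-down. The NANOG arrays overlapped mock and the SOX2 and OCT4 arrays lay below both. The difference between SOX2 and NANOG silencing was -0.53 (adjusted p = 0.000341), under 1.5-fold.

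ZNF319, ZNF161, ZNF415, ZNF597, ZNF35 and ZNF277, which also carry C2H2 fingers, were not called between SOX2 and NANOG silencing. ZNF319 differed by 0.53 (adjusted p = 0.00267) and was called in 4 of the 21 alternatives. ZNF161, now VEZF1 and known from blood vessel development, differed by 0.25, ZNF415 by 0.27 and ZNF597 by 0.25, the last with a 95% confidence interval of -0.01 to 0.51. ZNF35 differed by -0.46 (adjusted p = 0.000754) and ZNF277 by -0.23 (95% confidence interval -0.48 to 0.01). On the SOX2 arrays ZNF277 lay 0.75 below mock, and on the NANOG arrays 0.51 below mock.

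No member was called between the SOX2 and OCT4 knock-downs, a comparison that shares the OCT4 arrays with the choice of members. With limma 0 of the 32 members and 0 of the 13302 probes tested were called (0%), 3 members and 1283 probes had an unadjusted p under 0.05, and the smallest adjusted p of any probe was 0.0734. The t-test of the study's methods, at an unadjusted p under 0.01 and 1.5-fold, called 0 members and 21 probes. With the arrays scaled to a common median, 3 members and 701 probes were called, and the median of all probes moved to -0.34. The members' differences ran from -0.40 (ZNF363, 95% confidence interval -0.73 to -0.08) to 0.23 (ZFP36, -0.26 to 0.72). The arrays of the knock-downs did not overlap for 5 members, where 16.6% of all probes do not overlap. A p above the threshold does not show that the OCT4 and SOX2 knock-downs acted alike.

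On chromosome 19 lay 12 of the 32 members (37.5%), of which 5 were from the higher list and 7 from the lower, and the other 20 were spread over 14 chromosomes with at most 2 on any. Among 538 RefSeq coding genes now named ZNF or ZFP, 255 (47.4%) lie on that chromosome. The members were picked by older symbols, and 11 of the 32 have a newer one. Those whose newer symbol no longer begins with ZNF or ZFP all lie on other chromosomes. The shares of 37.5% and 47.4% are therefore not of like sets. Of the members on chromosome 19, 5 follow each other at its end. Their order is ZNF17, ZNF134, ZNF551, ZNF587 and ZNF132, with 10, 2, 6 and 22 other coding genes between them. All 5 carry C2H2 fingers. ZNF17, ZNF134, ZNF551 and ZNF132 had negative differences from mock in each knock-down, from -0.85 (ZNF551 after SOX2 silencing) to -0.03 (ZNF132 after NANOG silencing). The NANOG arrays of ZNF132 overlapped mock, and the sign of that difference changed in 5 of the 21 alternatives and that of ZNF17 in 1. ZNF587 had differences of 0.43 after OCT4, -0.39 after NANOG and 0.30 after SOX2 silencing and was not called in any of them.

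The windows of 250 bases before the start of each of these 5 genes (RefSeq, GRCh38.p14) are shown because these genes are neighbours that share short strings. Capitals mark ACTACATT and CCGGAAGT on either strand, the reverse complements being AATGTAGT and ACTTCCGG. The windows are chr19:57410911-57411160 (+) for ZNF17, chr19:57613992-57614241 (+) for ZNF134, chr19:57681727-57681976 (+) for ZNF551, chr19:57849609-57849858 (+) for ZNF587 and chr19:58440154-58440403 (-) for ZNF132.
ZNF17: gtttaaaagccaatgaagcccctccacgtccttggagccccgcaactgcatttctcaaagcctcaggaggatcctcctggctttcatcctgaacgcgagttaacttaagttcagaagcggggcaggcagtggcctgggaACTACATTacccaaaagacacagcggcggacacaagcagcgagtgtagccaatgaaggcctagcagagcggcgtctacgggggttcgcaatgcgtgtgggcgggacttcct
ZNF134: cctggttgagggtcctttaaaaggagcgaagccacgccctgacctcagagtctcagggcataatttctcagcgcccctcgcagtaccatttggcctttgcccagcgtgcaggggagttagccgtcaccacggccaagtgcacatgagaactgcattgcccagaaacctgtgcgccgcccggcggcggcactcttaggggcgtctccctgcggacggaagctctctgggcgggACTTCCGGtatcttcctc
ZNF551: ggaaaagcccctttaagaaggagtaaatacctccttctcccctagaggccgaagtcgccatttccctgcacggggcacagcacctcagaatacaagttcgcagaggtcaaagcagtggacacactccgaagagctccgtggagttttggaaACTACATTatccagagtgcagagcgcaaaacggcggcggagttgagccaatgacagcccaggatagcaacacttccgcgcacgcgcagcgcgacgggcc
ZNF587: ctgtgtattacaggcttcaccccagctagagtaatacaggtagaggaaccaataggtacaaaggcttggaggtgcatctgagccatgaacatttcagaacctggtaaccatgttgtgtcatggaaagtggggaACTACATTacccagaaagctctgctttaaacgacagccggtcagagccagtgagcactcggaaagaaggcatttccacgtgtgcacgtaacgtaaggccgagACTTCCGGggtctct
ZNF132: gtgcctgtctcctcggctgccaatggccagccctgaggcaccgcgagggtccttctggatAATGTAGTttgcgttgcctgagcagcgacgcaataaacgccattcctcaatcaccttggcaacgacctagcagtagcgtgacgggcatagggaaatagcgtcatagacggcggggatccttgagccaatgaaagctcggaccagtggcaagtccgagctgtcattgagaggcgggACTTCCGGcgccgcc

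ACTACATT was found in the window of ZNF17, ZNF551, ZNF587 and ZNF132, at 111, 99, 117 and 190 bases before the start. Windows that also hold 50 bases after the start were searched for the shares: 4 of the 42 member windows (9.52%) held it, beside 0.991% of all 35116 windows, 8.51% of 670 windows of genes named ZNF or ZFP and 14.8% of 311 of those on chromosome 19. CCGGAAGT, an ETS type motif, lay 18, 15 and 15 bases before the start of ZNF134, ZNF587 and ZNF132. It was in 7 of the 42 member windows (16.7%), beside 4.14% of all windows, 14% of the windows of genes named ZNF or ZFP and 17.4% of those on chromosome 19. Both member shares lay nearer those of the zinc finger genes, picked by current symbol unlike the members, than those of all genes. ZNF587 and ZNF132 held both strings before the start. ZNF551 held both only in the longer window that includes the 50 bases after the start. The octamer ATTTGCAT was in 0 of the 42 member windows and 1.77% of all windows, ACAAAG was in 19% and 16.1%, and ACAATG in 4.76% and 10.8%. Windows were given for 30 of the 32 members, not for ZFP36L2 and ZNF145. The strings were chosen after a wider look at the windows and are a description.

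For ZNF587 the 3 mock arrays gave 6.36, 6.30 and 6.60, the OCT4 arrays 6.85, 6.92 and 6.80, the NANOG arrays 6.22, 6.12 and 5.75 and the SOX2 arrays 6.56, 6.78 and 6.82. Its SOX2 arrays lay above its NANOG arrays by 0.69 (SE 0.12, adjusted p = 0.000691), a call lost in 4 of the 21 alternatives, among them without NANOG knock-down replicate 3 (0.55). ZNF132 read 6.85, 6.78 and 6.74 on the mock arrays, 6.06, 6.09 and 6.13 after OCT4 silencing, 6.82, 6.47 and 6.99 after NANOG silencing and 6.23, 6.05 and 6.19 after SOX2 silencing. SOX2 silencing was lower than NANOG silencing by 0.60 (SE 0.11, adjusted p = 0.000858), a call lost in 8 of the 21 alternatives, among them median scaling (-0.53), no background correction (-0.30), and the fits without NANOG replicate 1 (-0.57) or 3 (-0.49) or SOX2 replicate 2 (-0.55). ZNF17, ZNF134 and ZNF551 differed by -0.46, -0.24 and -0.57 between SOX2 and NANOG silencing and were not called; ZNF551 was called in 4 of the 21 alternatives.

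**Figure D4:**
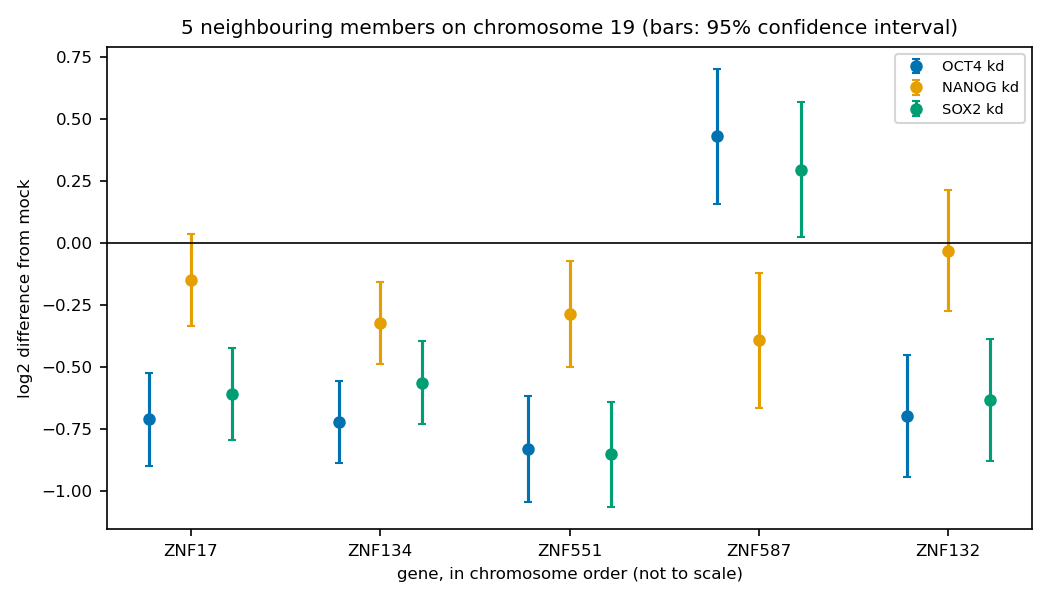
The log2 difference from mock (y axis) is plotted with 95% confidence intervals for 5 neighbouring genes in chromosome order (x axis, not to scale) after OCT4, NANOG and SOX2 silencing. ZNF587 stands above 0 after OCT4 (0.43) and SOX2 (0.30) silencing and at -0.39 after NANOG silencing, while the other 4 genes lie below 0.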

How the data were processed

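Total RNA of NCCIT cells was labelled and hybridised to Illumina whole-genome BeadChips, and the authors exported 1 table per array from BeadStudio 1.0. The deposited intensities are mean bead signals per probe on a linear scale, with no background subtracted (every value was above 55), and the deposited detection scores are fractions from 0 to 1. The authors' own table of group means, on a linear intensity scale after their normalisation, was used only to compare signs. Genome build and probe annotation are not given in the sources used here, so probes were named through the published gene lists, which hold names for 2985 probes. Of the 32 genes, 30 were matched to RefSeq by accession and 2 by symbol, and 11 have a newer symbol.

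From the deposited signals, 4 control probes were left out. Background was corrected by normexp with parameters taken from the detection column, arrays were quantile-normalised, 16 was added and log2 taken, in R 4.3.3 with limma 3.58.1. Probes with a detection score of at least 0.99 on at least 2 of 3 arrays of any group were tested, 13302 in all, in 1 limma fit over 12 arrays with Benjamini-Hochberg adjustment. Where a gene was not detected on any array of a group, its fold is given as a bound against the lowest detected signal. The scripts were tested on simulated data. The members and lists were chosen with earlier results of these data known. Values on every array are given for the 10 members with the largest difference between the SOX2 and NANOG knock-downs, those at least 1.5-fold from mock after NANOG silencing, the 3 with the highest mean signal and all members of the C3H, BTB, RING, LIM, ArfGAP and SCAN classes, with ZNF587 and ZNF132 added for their position. Other zinc finger probes and the partner proteins that had been planned were not analysed here, since the probes are not named. 1 gene that the rule leaves out is not reported here. Alternatives were other scaling, background, filter, offset and test, leaving out each array, and a replicate block.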

Additional observations from a re-analysis of the deposited data

How the results depend on the processing

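With no background correction the members called were 8 in place of 26 for OCT4 against mock, 0 in place of 2 for NANOG against mock, 9 in place of 23 for SOX2 against mock and 7 in place of 13 for SOX2 against NANOG, and the probes called over the array were 1481, 376, 1498, 1294 and, for SOX2 against OCT4, 13, in place of 3157, 1223, 3053, 2707 and 0. An offset of 50 gave 2086 probes for OCT4 against mock, 1 member and 616 probes for NANOG against mock and 13 probes for SOX2 against OCT4. Median scaling gave 5316 probes for OCT4 against mock, with 14 members called higher and 4 lower there in place of 9 and 17, and 3 members and 701 probes for SOX2 against OCT4, where the median of all probes moved to -0.34. Array weights gave 59 probes for SOX2 against OCT4, and the t-test of the study's methods gave 21 there and 1 member for NANOG against mock. Without 1 array, SOX2 against OCT4 gave 0 to 4 probes, 1 at the lowest when not 0; every other count of calls stayed within 1.5 times. Between SOX2 and NANOG, 6 of the 13 calls (ZNF132, ZNF185, ZNF306, ZNF342, ZNF587 and ZNF607) were lost under at least 1 alternative, and the cause was not tested. No called member changed sign. Between SOX2 and NANOG the sign in the authors' table was the same for 29 of 29 members with a ratio. Against mock it was the same for 28 of 28 after OCT4, 27 of 28 after NANOG and 28 of 28 after SOX2 silencing. For SOX2 against OCT4 it was the same for 24 of 31. The array numbers do not pair the samples: over 18 pairs of the same number the correlation of deviations ran from -0.26 to 0.28, 4 of them over 0.1. With the replicate block 13 members were called between SOX2 and NANOG, as without it. The same settings for the genes of partner proteins were not run, since their probes are not named. Signal over background limits the dim members, 4 of which were not detected in at least 1 group.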
